A study of Mus musculus with 16 samples.

Results

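Fat that clings to the heart, or adipocytes within it, can leave transcripts in a preparation of left ventricle. The level of such transcripts was followed here through 8 genes that adipocytes express: Adipoq, Cfd, Retn and Lep, whose products are secreted, Plin1 and Cidec, whose products coat and enlarge the lipid droplet, Car3, a cytosolic enzyme, and Ucp1, which marks brown and beige fat. The 8 genes were taken by name from a deposited table of 55492 genes, and all 8 were found in it. The values are read counts per gene divided by a factor for the depth of each library, referred to below as normalized counts.

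RNA had been taken from left ventricles of 16 male C57BL/6 mice aged 8-12 weeks, 1 library per sample, in 6 groups. PKM2fl/fl mice, which carry floxed Pkm alleles and no deletion, served as controls for PKM2-/- mice, in which a CMV promoter-driven Cre had removed the PKM2-specific exon in the germline before the Cre allele was bred away, so that every cell type lacks PKM2 from the start of life. Each genotype was sampled without surgery (baseline, 2 libraries), 3 days after a sham operation (3 libraries) and 3 days after myocardial infarction (MI) by permanent ligation of the left anterior descending artery (3 libraries). The labels and methods do not say whether the infarct was included or whether fat was trimmed.

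White adipocytes store triglyceride in 1 large lipid droplet. Perilipin 1, the product of Plin1, sits on that droplet and holds lipases in check, and the product of Cidec lets small droplets fuse into large ones. Adipocytes also act as an endocrine tissue: Adipoq encodes adiponectin, Lep encodes leptin, Retn encodes resistin, which in mice comes chiefly from fat, and Cfd encodes adipsin, the serine protease also known as complement factor D that cleaves factor B in the alternative complement pathway. Car3, carbonic anhydrase III, is abundant in adipocytes, slow skeletal muscle and liver, and Ucp1 encodes the mitochondrial uncoupling protein of heat-producing fat.

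The stretches of promoter nearest to the transcription start are shown for Adipoq, the most widely used adipocyte gene of the set, for Cfd, the gene that passed the test described below, and for Lep, which was almost unseen. They are RefSeq sequences of the GRCm38.p6 assembly, which corresponds to the mm10 build used for the deposited counts. Each gives the last 100 bases before the start, on the plus strand: chr16:23146436-23146535 for Adipoq, chr10:79890753-79890852 for Cfd and chr6:29060121-29060220 for Lep. Capitals mark matches, on either strand, to TATAA, to CCAAT, or to TTGCGCAA, the palindrome to which C/EBP proteins bind.
Adipoq: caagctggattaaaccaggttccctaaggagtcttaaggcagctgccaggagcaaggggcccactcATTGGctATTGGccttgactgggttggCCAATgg
Cfd: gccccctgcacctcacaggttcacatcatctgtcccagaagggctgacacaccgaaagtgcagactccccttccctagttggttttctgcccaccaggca
Lep: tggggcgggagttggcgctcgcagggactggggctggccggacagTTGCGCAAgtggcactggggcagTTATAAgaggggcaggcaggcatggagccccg
Promoters were available for 7 of the 8 genes, Cidec with a pair of starts, and Car3 was not among them. In the 250 bases before the start, TTGCGCAA was found for Lep alone among the 7 genes, at 55 to 48 bases before the start, and in 0.164% of 32851 mouse promoters of that length. TATAA was also found for Lep alone (22.8% of all promoters), in the run TTATAA, where its matches on opposite strands overlap by 4 bases. CCAAT occurred for Adipoq alone, in 3 places (33.8% of all promoters). A direct repeat of AGGTCA with 1 base of any kind between its copies, the type bound by PPAR with RXR, was found for none of the 7 genes and in 0.0335% of promoters. No motif overlapped a match to another of the 4. These matches describe the letters only.

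All 16 libraries held abundant ventricular cardiomyocyte transcripts, with Myh6 between 46178 and 451806 normalized counts and reads for 7 of 7 ventricular markers in each. Between 20623769 and 71855101 reads fell on genes, and 1 read was worth 0.49 to 1.83 normalized counts. Pkm, counted as a whole gene over the isoforms with and without the deleted exon, ranged from 7779 to 12076 normalized counts in PKM2fl/fl libraries and from 10120 to 16113 in PKM2-/- libraries, so it did not check the genotype. A single ribosomal RNA locus, CT010467.1, took between 0.111% and 25.1% of the reads. Its share was 0.256% and 0.494% in PKM2fl/fl baseline libraries and 8.25% and 7.63% in PKM2-/- baseline libraries. After sham surgery it was at most 1.39% in PKM2fl/fl and at least 4.14% in PKM2-/- libraries. The genotypes thus did not overlap in this share at baseline or after sham surgery, but they overlapped after MI. The part of this locus in the values below, differences between genotypes included, was not tested. Read numbers were often even: of values between 1 and 20 reads, 65.6% were even, as were 72 of the 90 values above 0 for the 8 genes and 13 of 13 for Adipoq. The libraries were sequenced from both ends, and where both mates of a pair were counted the number of fragments is lower than that of reads and the counting intervals given below are too narrow.

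The 8 genes lay near the limit of detection. Over all 16 libraries there were 612 reads for Car3, 431 for Cfd, 157 for Plin1, 132 for Adipoq, 131 for Cidec, 61 for Retn, 6 for Ucp1 and 2 for Lep, 1532 of 603433522 reads in all. Mean levels were 40.9 normalized counts for Car3, 28.4 for Cfd, 9.91 for Plin1, 8.92 for Adipoq, 8.70 for Cidec, 3.59 for Retn, 0.383 for Ucp1 and 0.18 for Lep. A mean of at least 10 was required for the test, and 2 of the 8 genes, Car3 and Cfd, met it, with Plin1 just outside.

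Levels of different genes were compared per kilobase of exon. Cfd was then the highest of the 8, with a mean of 29.4 normalized counts per kb, followed by Car3 at 13.2, Adipoq at 3.92, Cidec at 2.81, Plin1 at 1.56, Retn at 1.33, Ucp1 at 0.197 and Lep at 0.0537. The spreads of Adipoq, Cidec and Plin1 over libraries overlapped widely, so their order is not firm. Genes that adipocytes share with the cells of the heart stood far above them on the same scale. Fabp4, a fatty acid carrier also made by capillary endothelium, had 1146 normalized counts per kb. Lpl, the lipase that frees fatty acids from circulating triglyceride, had 4073. Myh6, the cardiac myosin heavy chain, a marker of ventricular cardiomyocytes and not a shared gene, had 26614. Adipoq thus reached 0.342% of the level of Fabp4 per kb. The lengths join the exons of all annotated transcripts of a gene, 2277 bases for Adipoq and 4953 for Fabp4. The ratio and the order of the genes per kb therefore depend on the annotation.

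**Figure D1:**
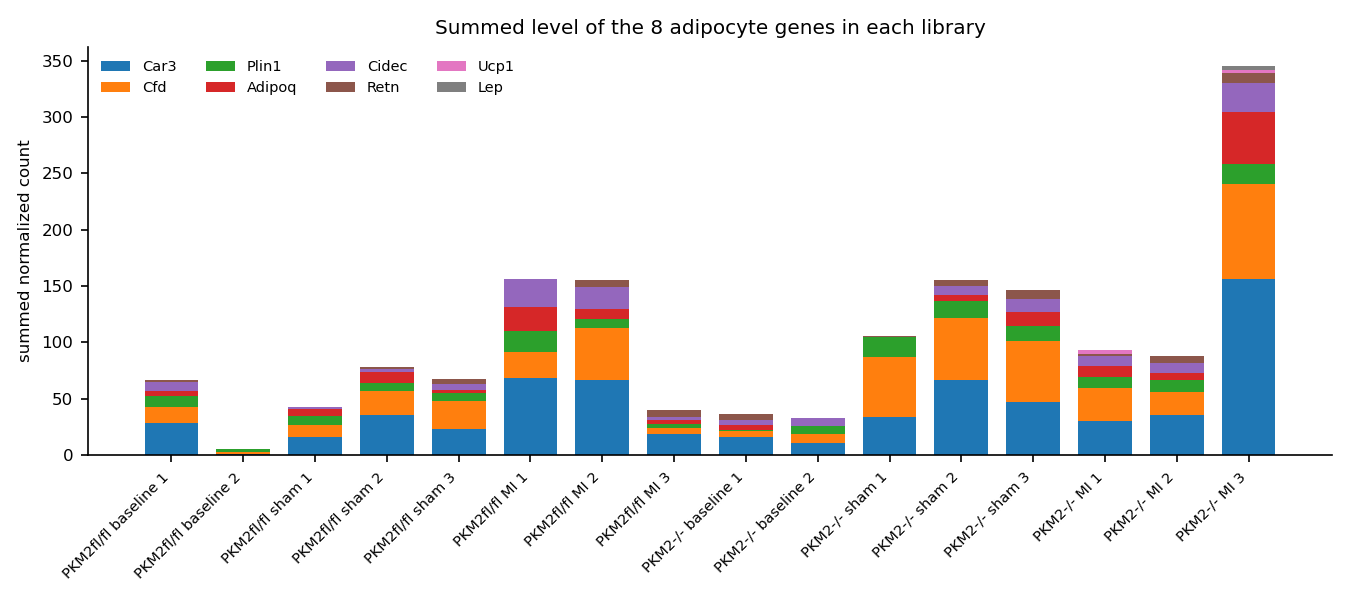
Normalized counts of the 8 genes stacked for each of the 16 libraries. Car3 and Cfd form the lower parts of each bar. The library PKM2-/- MI 3 reaches 344.8 and PKM2fl/fl baseline 2 reaches 5.31.

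Summed over the 8 genes, the level varied widely among libraries of the same group. At baseline the sums were 66.7 and 5.31 normalized counts in PKM2fl/fl and 36.1 and 32.99 in PKM2-/- hearts. After sham surgery they were 42.9, 78.0 and 67.7 in PKM2fl/fl and 106.1, 155.4 and 146.7 in PKM2-/- hearts. After MI they were 156.1, 155.4 and 40.2 in PKM2fl/fl and 93.2, 87.6 and 344.8 in PKM2-/- hearts. The stacked plot shows 1 library well above the rest, PKM2-/- MI 3, which was 4.42 times the median of the other 15 and the only library with reads for all 8 genes. At the other end, PKM2fl/fl baseline 2 held 8 reads for 3 of the genes. The same libraries were the extremes when the reads were taken relative to the depth of each library. Group means ran from 34.6 ± 2.22 (SD, n = 2) in PKM2-/- baseline to 175.2 ± 147 (SD, n = 3) in PKM2-/- MI, and without PKM2-/- MI 3 the latter mean was 90.4. Ordered by mean, the groups were PKM2-/- MI, PKM2-/- sham, PKM2fl/fl MI, PKM2fl/fl sham, PKM2fl/fl baseline and PKM2-/- baseline, and every pair of neighbours in this order overlapped. The sham groups of the genotypes did not overlap in the sum of the 8 genes. Without Cfd and Car3 they overlapped, at 16.45, 21.6 and 19.6 in PKM2fl/fl and 19.3, 34.0 and 45.3 in PKM2-/- hearts. No background share was made for such sums. Of the 12 libraries from operated hearts, 10 lay above all 4 baseline libraries, for the sum and for Cfd alike, 9 did for Car3 and for Adipoq, 7 for Retn, and 6 each for Plin1 and Cidec. These 12 libraries pool both genotypes, sham surgery and MI. The same counts were not made for all genes, so there is no background share to set beside them and no effect of surgery is read from them. In these bulk libraries, fewer adipocytes and less of an RNA per adipocyte cannot be told apart, and whether the reads came from adipocytes was not tested.

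Markers of other tissues that could be carried along with fat were read beside these sums. The 7 mesothelial markers summed to 247 to 278 normalized counts in PKM2fl/fl baseline, 287 to 455 in sham and 336 to 1253 in MI hearts, and to 141 to 216, 275 to 707 and 466 to 805 in PKM2-/- hearts. All 7 had reads in most libraries, the least being Bnc1 at 0 in 3 of 16. The 11 skeletal muscle markers summed to 320 to 619 over all libraries, mostly through Mybpc2, with reads for Tnnt3, Tnni2, Mylpf and Atp2a1 also in all 16. Tnnt3 ranged from 3.67 to 96.5 and Atp2a1 from 15.5 to 51.8, levels like those of Cfd and Car3. The fast myosins were at or near 0, Myh4 at 0 in 11 libraries, Myh1 in 8 and Myh2 in 7. Of the 6 thymocyte markers, Rag1 was at 0 in 14 libraries, Ptcra in 13 and Dntt in 9, while Rag2 (21.6 to 103), Themis (7.73 to 33.8) and Cd8b1 (1.33 to 10.7) had reads in all 16. The log2 sum of the 8 genes had a Pearson correlation over the 16 libraries of 0.39 with the mesothelial sum, 0.13 with the skeletal muscle sum and 0.56 with the atrial sum, and with group means removed these were -0.19, 0.21 and 0.04. The atrial sum was mostly Nppa, with a mean of 5877 normalized counts against 75.8 for Sln, 150 for Myl7 and 339 for Myl4. The mesothelial sum was mostly Wt1, with a mean of 275 against 49.7 for Msln, the next highest. Single markers were also set against the mean of Adipoq, Plin1, Cidec and Cfd, with group means removed. Sln, Myl7, Myl4 and Nppa had -0.59, -0.35, -0.37 and 0.04. Skeletal muscle markers ran from -0.48 for Myh4 to 0.63 for Atp2a1, and mesothelial markers from -0.50 for Krt19 to 0.19 for Msln. The ventricular cardiomyocyte markers were all positive, from 0.31 for Ryr2 to 0.57 for Tnni3. Further genes enriched in adipocytes, described below, ran from -0.59 for Pparg to 0.65 for Pck1. These correlations are descriptions over libraries that differ in depth, and the part of these tissues in the sums was not tested.

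**Figure D2:**
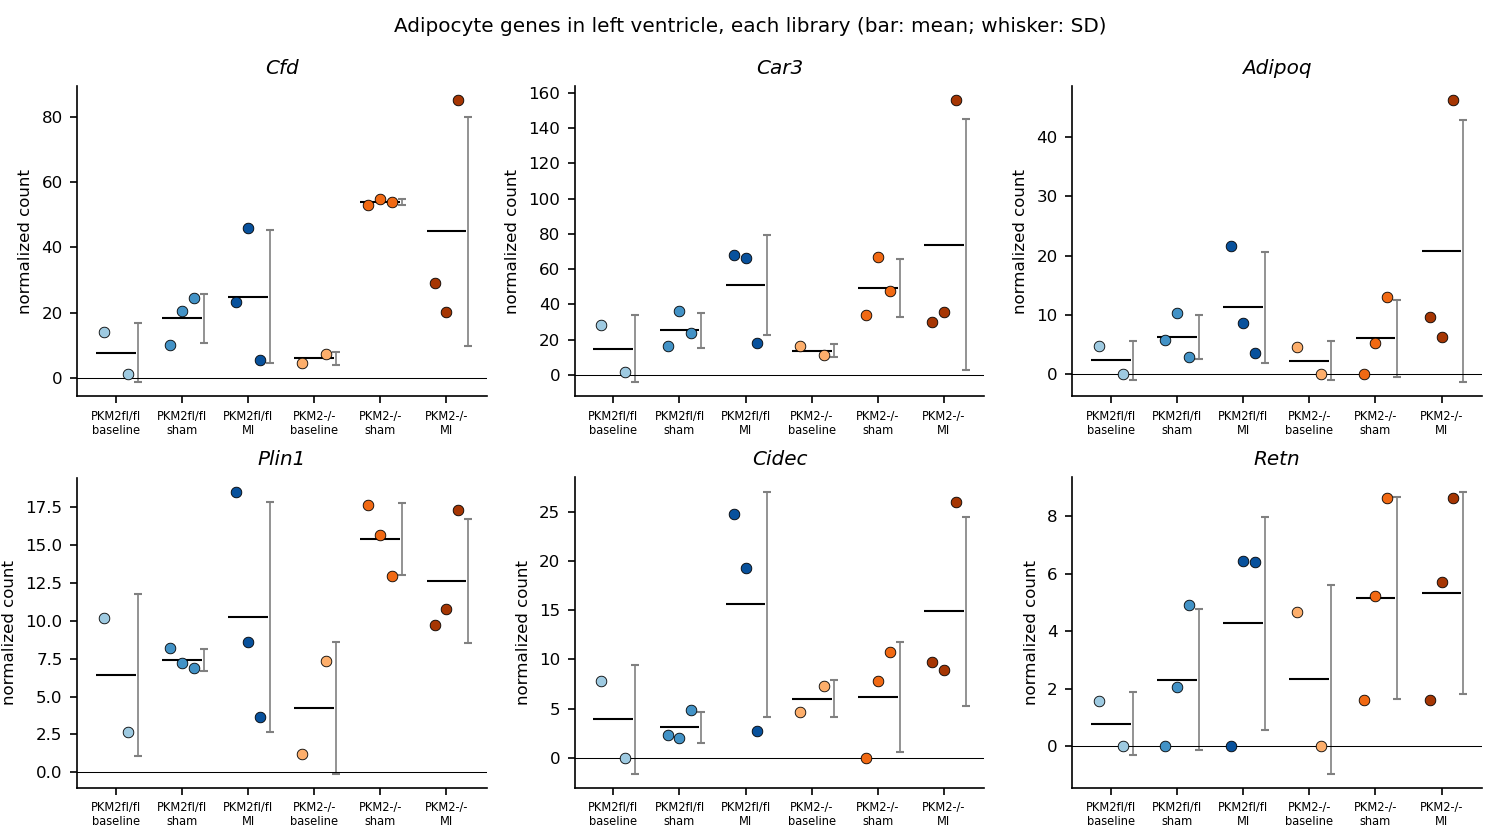
Normalized counts of 6 of the genes in each library, by group, with the group mean (bar) and SD (whisker, n = 2 at baseline, n = 3 otherwise). Cfd lay between 53.1 and 54.9 in the 3 PKM2-/- sham libraries, above the 24.5 of the highest PKM2fl/fl sham library; Adipoq reached 46.2 in PKM2-/- MI 3.

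Adipsin was the 1 gene of the 8 to pass the test. Cfd (chr10:79890853-79892655, GRCm38.p6) rose in PKM2-/- hearts after sham surgery. It measured 4.66 and 7.33 normalized counts in the PKM2-/- baseline libraries, from 4 reads each, and 53.1, 54.9 and 53.9 in the PKM2-/- sham libraries, from 33, 42 and 50 reads. The groups did not overlap, and 18.4% of tested genes were likewise higher in every PKM2-/- sham library than at baseline. The log2 fold change of Cfd was 3.00 (SE 0.83) with an adjusted p of 0.0497 in limma, which lies just inside the threshold of 0.05. In this comparison 2.66% of 20576 genes were called, 2.06% as higher, so a call was not rare, and 1 of the 2 adipocyte genes tested was called. The call was kept in 9 of 24 alternative analyses, among which the adjusted p ran from 5.98e-06 with edgeR without a filter to 0.259 in limma without PKM2-/- baseline 1. The edgeR test on the same genes gave an adjusted p of 0.0966 and DESeq2 gave 0.0135.

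In the other groups the values of Cfd lay further apart. Those of the PKM2-/- sham libraries were closer together than counting error alone would give. The first of them had a Poisson 95% interval of 36.5 to 74.5, so no low spread is read from them. PKM2fl/fl hearts had 14.1 and 1.33 normalized counts at baseline and 9.99, 20.5 and 24.5 after sham surgery, and these groups overlapped. The log2 fold change was 1.62 (SE 0.83, adjusted p = 0.626 in limma), in a comparison with 0.17% of genes called. Whether the response of Cfd to sham surgery differed between the genotypes was not tested. Directly after sham surgery the genotypes did not overlap, with PKM2-/- higher by 1.59 on the log2 scale (SE 0.74), but the difference did not pass the correction (adjusted p = 0.498 in limma, with 0.00486% of genes called). Plin1 also did not overlap there, so that 2 of the 8 genes were higher in every PKM2-/- library; 8.27% of tested genes and 5.18% of the 40116 genes with reads were higher in this sense. In edgeR without the filter on low values, an analysis added after the low counts had been seen, Cfd was called in this comparison with an adjusted p of 0.0102, where 0.76% of genes were called; over its alternatives the adjusted p ran up to 0.796.

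After MI, Cfd measured 23.2, 46.1 and 5.49 normalized counts in PKM2fl/fl and 29.2, 20.3 and 85.1 in PKM2-/- hearts. These groups overlapped each other and the sham groups of their own genotype. Against sham the log2 fold changes were 0.10 (SE 0.74, adjusted p = 0.923 in limma) in PKM2fl/fl and -0.53 (SE 0.74, adjusted p = 0.568 in limma) in PKM2-/- hearts. MI changed a large part of the transcriptome, with 23.5% and 28.8% of tested genes called, and neither Cfd nor Car3, the 2 of the 8 genes tested, was among them in limma. Without the filter 1 further gene was called in each genotype, Cidec in PKM2fl/fl by edgeR and Ucp1 in PKM2-/- by limma, both described below. The difference between these responses, PKM2-/- minus PKM2fl/fl, was -0.62 (SE 1.05), with an adjusted p of 0.903 in limma. For this interaction limma called 0 of 20576 genes (0%), while 1703 had an unadjusted p under 0.05, edgeR called 0, DESeq2 called 34 and edgeR without a filter called 304.

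Car3, carbonic anhydrase III (chr3:14863538-14872381), varied along with Cfd. It measured 28.3 and 1.33 normalized counts in PKM2fl/fl baseline and 16.3 and 11.0 in PKM2-/- baseline libraries. Sham libraries had 16.5, 35.9 and 23.5 in PKM2fl/fl and 33.8, 66.6 and 47.5 in PKM2-/- hearts. MI libraries had 68.0, 66.4 and 18.3 in PKM2fl/fl and 29.99, 35.6 and 155.8 in PKM2-/- hearts. Car3 was highest in the library that was also highest for Cfd, and it was lowest in the same PKM2fl/fl baseline library. PKM2-/- sham lay above baseline in every library, as it did for 3 of the 8 genes (Cfd, Car3 and Plin1), for 18.4% of tested genes and for 11.0% of genes with reads, and the log2 fold change of 1.75 (SE 0.89) did not pass the correction (adjusted p = 0.315 in limma). It passed in edgeR without a filter (adjusted p = 0.00396, with 2.34% of genes called), the 1 of 24 alternatives to do so, and over these the adjusted p ran up to 0.632. Against sham, MI gave 0.84 (SE 0.80) in PKM2fl/fl and 0.21 (SE 0.80) in PKM2-/- hearts on the log2 scale, and the adjusted p in limma was 0.406 and 0.839. For the first of these, edgeR without a filter gave an adjusted p of 0.0203 at 0.99, just under a 2-fold change. Between genotypes at baseline the difference was 0.80 (SE 0.98) in limma but turned to -0.034 in edgeR and -0.088 in DESeq2. The other differences between genotypes were 0.95 (SE 0.80) after sham surgery and 0.33 (SE 0.80) after MI. None of these passed, where 0.00972%, 0.00486% and 0.413% of tested genes were called.

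**Figure D3:**
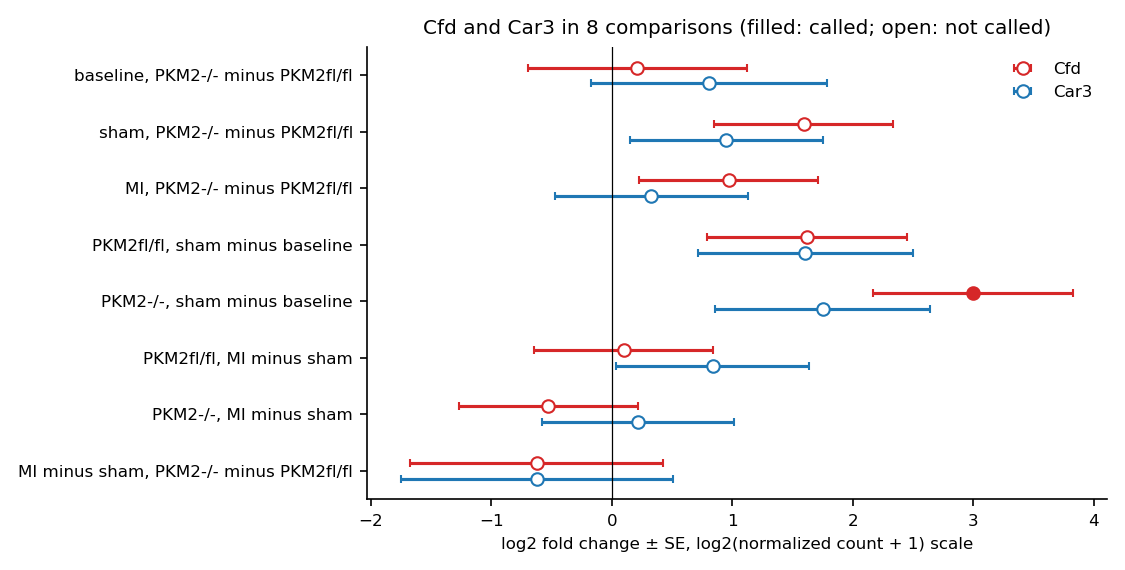
Log2 fold changes of Cfd and Car3 (points) with SE (bars) in the 8 comparisons, from the limma fit over all 16 libraries. Cfd after sham surgery in PKM2-/- hearts, at 3.00, is the filled point that passed the test; all other points are open.

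Adiponectin transcripts were few. Adipoq (chr16:23146536-23157968) measured 4.71 and 0 normalized counts in PKM2fl/fl baseline, 5.88, 10.3 and 2.94 in sham and 21.6, 8.57 and 3.66 in MI libraries. In PKM2-/- hearts it measured 4.66 and 0 at baseline, 0, 5.22 and 12.9 after sham surgery and 9.73, 6.35 and 46.2 after MI. The last value, from 32 reads, has a Poisson 95% interval of 31.6 to 65.2, above the value of every other library. The groups overlapped in all comparisons. Without the filter, its log2 fold change from sham to MI in PKM2-/- hearts was 1.81 (SE 1.06) in limma (adjusted p = 0.247, with 17.0% of genes called), and it was 1.57 in edgeR (adjusted p = 0.0798).

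The lipid droplet genes gave much the same picture. Plin1 (chr7:79721164-79732904) had reads in all 16 libraries and ranged from 1.17 to 18.5 normalized counts. It measured 8.23, 7.19 and 6.86 in PKM2fl/fl sham and 17.7, 15.7 and 12.9 in PKM2-/- sham libraries, which did not overlap, against 1.17 and 7.33 in PKM2-/- baseline. Neither difference passed in limma or edgeR without a filter or in DESeq2, among which the adjusted p was 0.656 to 0.874 between genotypes and 0.205 to 0.283 against baseline. Cidec (chr6:113424634-113435760) measured 2.35, 2.05 and 4.90 in PKM2fl/fl sham and 24.7, 19.3 and 2.74 in PKM2fl/fl MI libraries, with the third MI library inside the sham range. Its log2 fold change passed only in edgeR without a filter, at 2.14 with an adjusted p of 0.0126 where 13.9% of genes were called, and the adjusted p was 0.284 in limma. In PKM2-/- hearts Cidec was at 0, 7.84 and 10.8 after sham surgery and 9.73, 8.89 and 25.97 after MI, and these groups overlapped.

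Resistin transcripts were few, and those of leptin and the uncoupling protein were almost absent. Retn (chr8:3655770-3659818) ranged from 0 to 8.66 normalized counts and was at 0 in 4 libraries, with no comparison passing in limma, edgeR or DESeq2. Lep (chr6:29060221-29073876) had 2 reads in PKM2-/- MI 3 and 0 in the other 15 libraries. Ucp1 (chr8:83290348-83298456) had 4 reads in PKM2-/- MI 1, 2 in PKM2-/- MI 3 and 0 in the other 14. A count of 0 allows a level of up to 3 reads as a one-sided 95% limit, or 1.47 to 5.5 normalized counts depending on the library, counting error only. In limma without a filter Ucp1 was called after MI in PKM2-/- hearts (adjusted p = 0.0182), where 17.0% of genes were called, on 6 reads in 2 libraries against none in the sham libraries, and no fold is given; in edgeR without a filter the adjusted p was 0.263. The other brown fat markers differed between themselves: Elovl3, an elongase of brown fat, was at 0 in 9 libraries, while Cidea, which heart muscle also expresses, was between 85.1 and 352 in all 16.

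Several of the genes varied together among libraries of the same group. With group means removed, the Pearson correlation of log2 levels over 16 libraries was 0.88 for Cfd with Car3, 0.76 for Cidec with Car3, 0.75 for Adipoq with Cidec and 0.73 for Adipoq with Car3. Plin1 with Adipoq had only 0.21, and Retn ran from -0.44 with Plin1 to 0.31 with Car3. The ratio of Car3 to Cfd nevertheless moved from 0.636 in PKM2-/- sham 1 to 3.50 in PKM2-/- baseline 1, so the genes did not keep a single proportion. In PKM2-/- sham 1, Cfd had 33 reads and Plin1 had 11 while Adipoq and Cidec had 0. The genes most like the mean of Adipoq, Plin1, Cidec and Cfd within groups were Ralgds (r = 0.91), Gm16183, Gm15972, Exd2, Sac3d1, Rab34, Dpm2, Cacna1a, Aga and Zpr1 (r = 0.83), over 16 libraries and 20574 genes whose 99th percentile was 0.69. The 8 genes themselves, Car3 included, were left out of this comparison. None of the 10 is in the adipocyte, lipid or brown fat lists used here. Points share libraries and depth, and the low counts limit every one of these correlations.

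**Figure D4:**
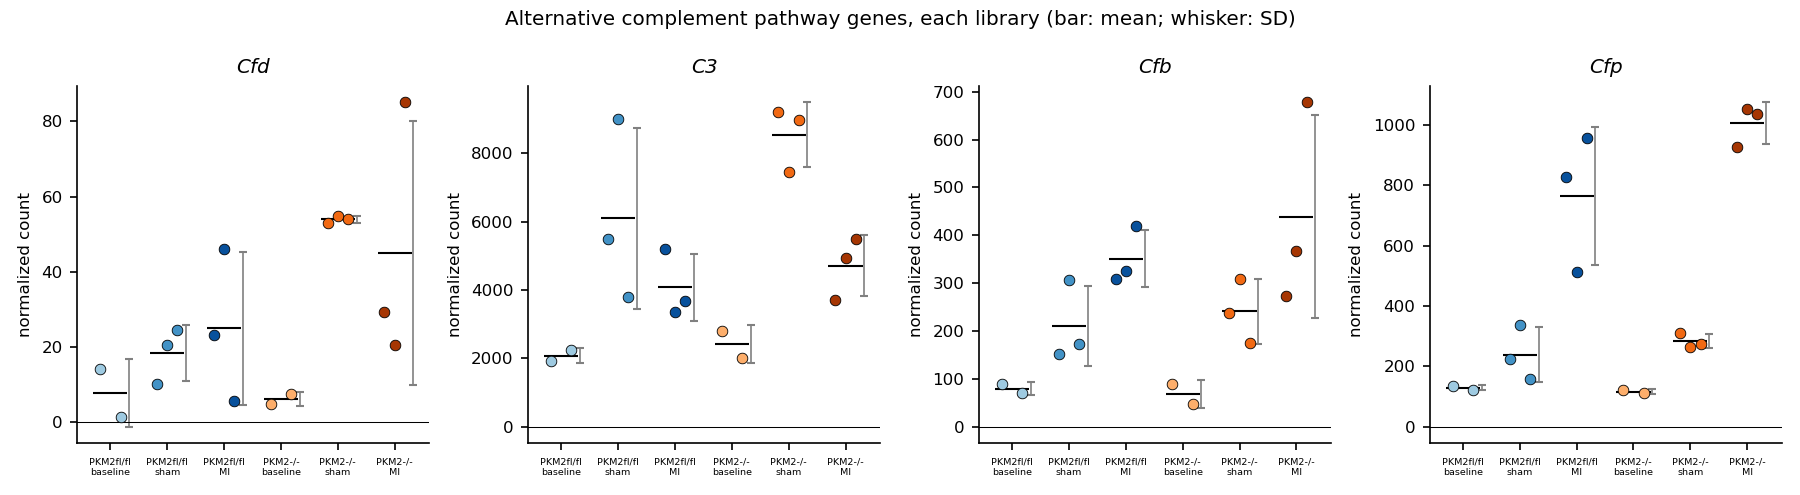
Normalized counts of Cfd and of 3 genes whose products act with factor D, by library, with the group mean (bar) and SD (whisker, n = 2 at baseline, n = 3 otherwise). C3 lay between 7462 and 9207 in PKM2-/- sham hearts and between 2018 and 2804 in PKM2-/- baseline hearts.

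Genes of the alternative complement pathway, like Cfd, were higher in PKM2-/- hearts after sham surgery than at baseline. C3 encodes the central component, Cfb encodes factor B, the substrate of factor D, and Cfp encodes properdin, which stabilizes the convertase that they form. C3 measured 2804 and 2018 normalized counts at baseline and 9207, 7462 and 8982 after sham surgery, a log2 fold change of 1.84 (adjusted p = 0.00267 in limma). Cfb rose from 89.7 and 47.6 to 237.9, 309.5 and 174.8, by 1.82 on the log2 scale (adjusted p = 0.0121 in limma). Cfp rose from 121 and 110 to 312, 265 and 275, by 1.29 (adjusted p = 0.0115 in limma). These were the 3 called of the 9 receptors and partners of the secreted products, against 2.66% of all tested genes. That list was chosen with earlier results of these data known, so the share is a description only. With group means removed, C3, Cfb and Cfp had correlations of 0.09, 0.19 and -0.18 with the mean of Adipoq, Plin1, Cidec and Cfd. PKM2-/- sham lay above PKM2-/- baseline in every library for C3, Cfb and Cfp, as it did for 18.4% of tested genes. C3 stayed called in 24 of 24 alternatives, Cfb in 23 and Cfp in 22, the exceptions being Cfb without PKM2-/- baseline 2 (adjusted p = 0.158) and Cfp without either PKM2-/- baseline library (adjusted p up to 0.0976).

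In PKM2fl/fl hearts the same genes were 1.46, 1.34 and 0.82 higher after sham surgery on the log2 scale, with adjusted p of 0.0556, 0.186 and 0.273 in limma, and whether the genotypes differed in this was not tested. Markers of neutrophils moved in the same comparison. The 4 neutrophil markers, S100a8, S100a9, Retnlg and Csf3r, were all called higher in PKM2-/- hearts after sham surgery, their sum going from 114 to 160 to 897 to 1146 normalized counts. Other cell types moved as well: Col1a1 and Col3a1 of 4 fibroblast markers, Cd68 of 4 macrophage markers and Nppa of 4 atrial markers were called higher in PKM2-/- hearts after sham surgery. In PKM2fl/fl hearts the neutrophil sum was 76.1 to 180 at baseline and 208 to 1213 after sham surgery, with 0 of 4 called. The median log2 fold change of the 4 markers was 2.87 in PKM2fl/fl and 3.42 in PKM2-/- hearts. Of all tested genes, 0.17% and 2.66% were called in these comparisons. Whether the neutrophil markers differed between the genotypes in this was not tested. The neutrophil sum and Cfd had a Pearson correlation of 0.54 over 16 libraries, and of -0.46 with group means removed. The part of these cells in the values of Cfd and its partners was not tested.

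From sham to MI, Cfp rose in both genotypes, by 1.70 in PKM2fl/fl and 1.82 in PKM2-/- hearts on the log2 scale (adjusted p = 3.39e-05 and 1.17e-05 in limma), as did Cap1, a protein that binds resistin (1.37 and 1.60, adjusted p = 9.77e-08 and 2.69e-08 in limma). These were the 2 called of 9 in each genotype, where 23.5% and 28.8% of all tested genes were called, so the share was no higher than that of all genes. C3 was at -0.52 and -0.87 from sham to MI; the second passed on p (adjusted p = 0.00871 in limma) but was below a 2-fold change. Cdh13, which encodes T-cadherin, a receptor for adiponectin and the most abundant gene of this list, was at -0.15 and -0.28 and was not called.

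**Figure D5:**
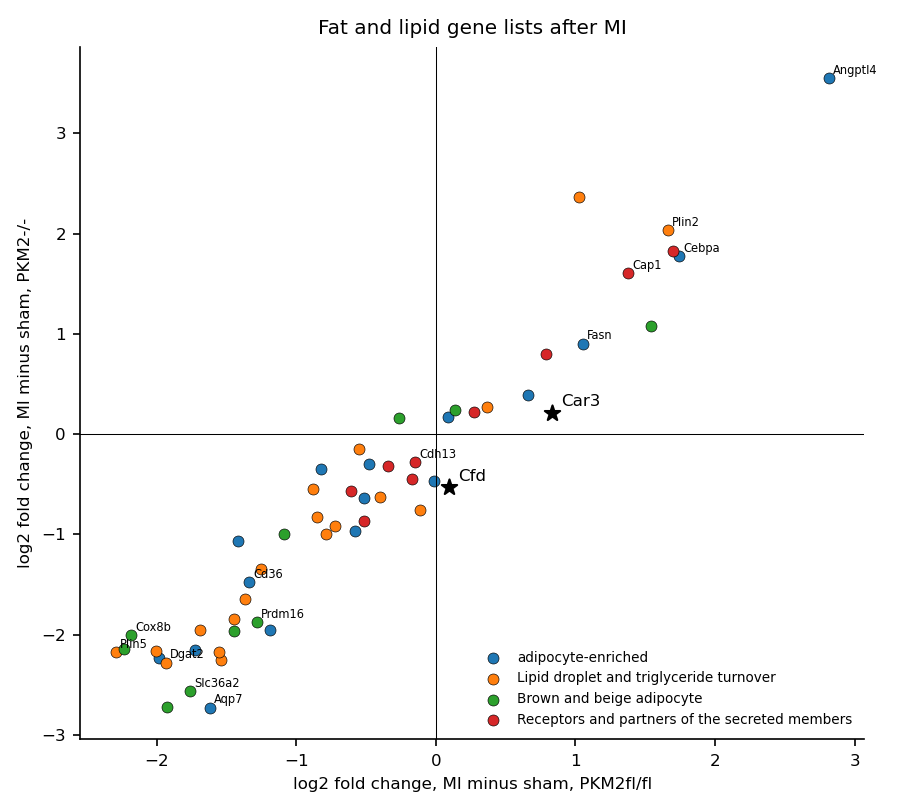
Log2 fold changes from sham to MI in PKM2fl/fl (x axis) and PKM2-/- hearts (y axis) for tested genes of 4 lists, with Cfd and Car3 as stars. Cfd (0.10 and -0.53) and Car3 (0.84 and 0.21) lie near the centre, while Plin2 is at 1.66 and 2.03 and Aqp7 at -1.62 and -2.73.

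Genes that adipocytes share with heart muscle and endothelium were called in both directions after MI. Of 21 further genes enriched in adipocytes, 16 passed the filter. After MI 3 were called higher and 5 lower in PKM2fl/fl hearts, and 2 higher and 6 lower in PKM2-/- hearts, 8 of 16 in each where 23.5% and 28.8% of all tested genes were called, with medians of -0.55 in both against 0.00 and 0.01 over all tested genes. Cd36, a fatty acid transporter, fell by 1.34 and 1.47 on the log2 scale, Thrsp, a lipogenic regulator, fell by 1.98 and 2.23, and Lpl, the most abundant of the list, fell by 1.73 and 2.16. Cebpa, a transcription factor of adipocyte and myeloid differentiation, rose by 1.74 and 1.78, and Fasn, fatty acid synthase, rose by 1.05 in PKM2fl/fl hearts, or by 0.97, below a 2-fold change, without PKM2fl/fl sham 1. Angptl4, an inhibitor of lipoprotein lipase that was singled out after its values were seen, rose by 2.81 and 3.55. The ventricular cardiomyocyte markers fell in the same comparisons, 6 and 7 of 7 being called lower, and macrophage markers rose, 4 of 4 in both genotypes. Fibroblast markers were called higher for 2 of 4 in both genotypes, and mesothelial markers for 6 of 7 in PKM2-/- and 0 of 7 in PKM2fl/fl hearts. The part of these cells in the values was not tested.

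Aqp7, which carries glycerol across the membrane, was the 1 gene of the 4 lists that was called between the genotypes. It measured 1092 to 1102 normalized counts in PKM2fl/fl baseline, 618 to 805 in sham and 131 to 361 in MI hearts. In PKM2-/- hearts it measured 933 to 1056, 462 to 640 and 75.02 to 86.4. After MI the genotypes differed by a log2 fold change of -1.48 (adjusted p = 0.0239 in limma), in a comparison in which 0.413% of genes were called. The 7 ventricular cardiomyocyte markers had a median of -0.39 there, against -0.0035 over all tested genes, and 0 of them were called. Their part in the values of Aqp7 was not tested. The call was kept in 18 of 24 alternatives and lost in those that fitted only the groups compared or left out PKM2fl/fl MI 1 or 2 or any of the PKM2-/- MI libraries (adjusted p up to 0.185). From sham to MI Aqp7 fell in both, by 1.62 in PKM2fl/fl and by 2.73 in PKM2-/- hearts, and the difference between these, -1.11 (SE 0.36), did not pass (adjusted p = 0.498 in limma).

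Among 19 genes of the lipid droplet and of triglyceride turnover, all of which were tested, 2 were called higher and 9 lower after MI in each genotype, against 23.5% and 28.8% of all tested genes, with medians of -0.88 and -0.99. Without PKM2fl/fl MI 3 the counts in PKM2fl/fl hearts were 1 and 6, and the higher count was also 1 without PKM2fl/fl sham 1, PKM2fl/fl sham 3 or PKM2fl/fl MI 1. Plin2, the perilipin found in most cell types, rose from 889 to 1292 normalized counts in PKM2fl/fl sham to 2816 to 3532 in MI, and from 924 to 1032 to 3581 to 4787 in PKM2-/- hearts. The perilipin of oxidative muscle, Plin5, fell by 2.29 on the log2 scale in PKM2fl/fl hearts. Dgat2, which makes triglyceride, fell by 1.93 and fell by 2.28, and Fitm2, which helps droplets form, fell by 1.55 and fell by 2.18. Lpin1, a phosphatidate phosphatase and the most abundant of the list, fell by 1.54 in PKM2fl/fl and fell by 2.25 in PKM2-/- hearts. Pnpla3, a droplet hydrolase, was the 1 gene of this list called after sham surgery, higher by 1.81 in PKM2-/- hearts (adjusted p = 0.0111 in limma), a call lost with only the groups compared and without PKM2-/- baseline 2 (adjusted p up to 0.131).

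Of 13 genes of brown and beige fat, 10 passed the filter, and 1 was called higher and 7 lower in PKM2fl/fl, 1 higher and 6 lower in PKM2-/- hearts after MI, against 23.5% and 28.8% of all tested genes. Without PKM2fl/fl MI 3 the 7 lower became 4, and without PKM2-/- sham 2 or PKM2-/- MI 1 the 1 higher in PKM2-/- hearts became 0. Cox8b and Cox7a1, cytochrome oxidase subunits shared with heart muscle, fell by 2.18 and 2.23 in PKM2fl/fl hearts. Ppargc1a, the coactivator of mitochondrial biogenesis, fell by 2.72 in PKM2-/- hearts and Slc36a2, an amino acid transporter, by 2.56. Prdm16, a regulator of brown fat identity, fell by 1.28 and 1.87, and the potassium channel gene Kcnk3 fell by 1.45 and 1.96; in PKM2fl/fl hearts both fell by less than 2-fold without PKM2fl/fl MI 3, at -0.88 and -0.99. Ucp1 itself was absent from this list and, as given above, had 6 reads in all.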

How the data were processed

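Total RNA from left ventricles had been depleted of ribosomal RNA and sequenced from both ends. The authors trimmed the reads with PRINSEQ, mapped them with HISAT2 (mm10) and assigned them to genes with featureCounts before DESeq2 scaling; versions are not given in the sources used here. The deposited values are counts divided by size factors, a depth-scaled signal, and whole reads were recovered for 100% of values within 0.01. The deposited log2 fold changes, the score columns (standard error and Wald statistic) and the p-values are the authors' own baseline comparison of the genotypes by DESeq2, and none was used. Each of the 16 libraries was assigned to 1 of 6 groups by its title. Libraries of a group differed by more than sampling noise, and the labels give no litter or day; p-values measure the spread between these samples.

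The test was limma (3.58.1, R 4.3.3) with a trend on log2(normalized count + 1), in 1 fit of 6 groups without a block. It covered 20576 genes with a mean of at least 10. Fold changes of low genes on this scale can lie below or above those of edgeR. For Car3 from baseline to sham in PKM2fl/fl hearts, limma gave 1.60 and edgeR without a filter gave 0.77. For Cfd in PKM2-/- hearts the same analyses gave 3.00 and 3.19. A gene was called where its change was 2-fold or more and its p, adjusted by Benjamini-Hochberg over the genes tested, was below 0.05. Alternatives were TMM scaling, edgeR 4.0.16, DESeq2 1.42.0, a pseudocount of 0.1, no filter, only the groups compared, a replicate block, leaving out each library and, added after the data were seen, edgeR without a filter. Of these steps, only the limma fit was run on simulated data, for the sham comparison of the genotypes. Intervals are exact Poisson limits and cover counting error only. Exon lengths are unions over GENCODE M39 transcripts, used as lengths alone. The 8 genes and the lists were chosen with earlier results of these data known. Named from the lists were at most 4 called genes per comparison with the smallest adjusted p and the most abundant gene, and, as most alike, the 10 genes with the highest within-group correlation.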

Additional observations from a re-analysis of the deposited data

How the results depend on the processing

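The call of Cfd in PKM2-/- hearts after sham surgery depended on the settings. The number of the 8 genes called there, 1, became 0 with edgeR, with the pseudocount of 0.1, without the filter and with the replicate block, and 2 with edgeR without a filter, and was 0 to 1 when 1 library was left out. Leaving out any PKM2-/- baseline or sham, any PKM2fl/fl sham, PKM2fl/fl MI 1 or PKM2-/- MI 1 or 2 library lost it, with an adjusted p of 0.0196 to 0.259 over all 16; the cause was not tested. Elsewhere the number, 0, became 1 with edgeR without a filter between sham genotypes and from PKM2fl/fl sham to MI, and 1 without the filter from PKM2-/- sham to MI. At baseline the difference of Cfd between genotypes, 0.21 on the log2 scale, was -0.36 with edgeR, -0.38 with edgeR without a filter and -0.37 with DESeq2, and -1.14 to 1.56 with a library left out. That of Car3, 0.80, was -0.034, -0.048 and -0.088, and -1.02 to 2.63. With a library left out, signs also turned for Cfd from sham to MI in PKM2fl/fl (-0.54 to 0.89) and in the interaction (-1.42 to 0.012), and for Car3 between MI genotypes (-0.41 to 0.76), from sham to MI in PKM2-/- (-0.53 to 0.64) and from baseline to sham in PKM2fl/fl (-0.22 to 3.43), none of them called. TMM shifted no median by more than 0.04.

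Counts of genes called, over settings other than leaving out a library, were 1 to 157 against 2 between baseline genotypes, 0 to 305 against 1 between sham genotypes, 6 to 508 against 85 between MI genotypes, 1 to 487 against 35 and 363 to 939 against 548 from baseline to sham in PKM2fl/fl and PKM2-/-, and 0 to 304 against 0 for the interaction. With 1 library left out they were 0 to 40, 0 to 49, 11 (without PKM2-/- MI 3) to 632 (without PKM2fl/fl MI 3), 7 (without PKM2fl/fl sham 1) to 212 (without PKM2fl/fl sham 3), 243 (without PKM2-/- baseline 2) to 622, and 0 to 226 (without PKM2fl/fl MI 3). Replicate numbers did not pair the libraries: deviations of 36 same-numbered pairs correlated at -0.20 to 0.13, 1 of them over 0.1, and the replicate block changed no other count of the 8 genes. Low depth limits these results, since 6 of the 8 genes had under 160 reads in 16 libraries, as do groups of 2 or 3 libraries and the spread within them.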
